A study of Mus musculus with 4 samples.

Results

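Lipid handling in the cells of mouse mammary tumours was followed through 7 genes: Fabp4, Fabp5, Plin2, Abca1, Cd36, Acadm and Insig1. They were taken by symbol from the 4099 complete gene rows of the count table, and all 7 were present. The tumours grew from 4T1 cells, a metastatic mammary carcinoma line, in BALB/c mice, and were either Mif-depleted (sgMif) or wild-type (CON). Mif encodes macrophage migration inhibitory factor, and its depletion was in the tumour cells, so the host cells described here carried no stated alteration. CD45+ cells were sorted for single-cell RNA sequencing, with 3 tumours combined in each of 2 samples per group. Cell barcodes end in a suffix, and no source used here ties a suffix to a library, so no comparison of sgMif with CON tumours was possible. Cells of suffix 1 (13162 cells) and suffix 2 (3221 cells with counts, 26.9% of those annotated) are therefore described apart, over 22 of the authors' cell type names.

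Cells take up long-chain fatty acids partly through CD36, carry them in the cytosol on fatty acid binding proteins, store them as triglyceride in droplets coated by perilipins, and burn them in mitochondria by beta-oxidation. Sterols are handled apart: the liver X receptors (LXR) switch on ABCA1, which exports cholesterol, when sterols are plentiful, and INSIG proteins hold back the SREBP factors that drive sterol synthesis. In tumours, macrophages and neutrophils with many droplets and dendritic cells loaded with lipid are well known, and FABP4 is a marker of capillary endothelium and fat cells.

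The 7 genes lie on chromosomes 3, 4 and 5 of GRCm38, and none overlaps another annotated gene in GENCODE M21. The paralogs Fabp5 (chr3:10012548-10016607, plus strand) and Fabp4 (chr3:10204088-10208576, minus strand) lie 187480 bases apart, and the longest run of bases their transcripts share is 16. Acadm is at chr3:153922357-153944632, Abca1 at chr4:53030787-53159895, Plin2 at chr4:86648386-86670060 and Cd36 at chr5:17781690-17888801, all on the minus strand, and Insig1 is at chr5:28071363-28078662 on the plus strand. RefSeq promoter windows on GRCm38.p6, running from 250 bases before to 50 bases after the start of the gene, matched 5 of the 7 members (not Fabp4 and Fabp5). The windows of the 2 sterol-regulated members and of the droplet coat gene are shown here because they were the 3 of the 5 that held the E-box CACGTG, given in capitals, which reads the same on both strands. The Abca1 window (chr4:53159846-53160145, minus strand) also holds a second run in capitals, starting at base 184, which matches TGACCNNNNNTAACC, a direct repeat of the kind that LXR binds. The other windows are those of Insig1 (chr5:28071162-28071461, plus strand) and Plin2 (chr4:86670010-86670309, minus strand).
Abca1: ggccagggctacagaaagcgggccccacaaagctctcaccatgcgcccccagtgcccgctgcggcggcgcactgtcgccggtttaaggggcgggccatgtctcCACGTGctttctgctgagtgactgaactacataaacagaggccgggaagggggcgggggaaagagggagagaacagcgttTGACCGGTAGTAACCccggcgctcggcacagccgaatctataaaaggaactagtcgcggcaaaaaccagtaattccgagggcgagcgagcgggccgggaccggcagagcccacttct
Insig1: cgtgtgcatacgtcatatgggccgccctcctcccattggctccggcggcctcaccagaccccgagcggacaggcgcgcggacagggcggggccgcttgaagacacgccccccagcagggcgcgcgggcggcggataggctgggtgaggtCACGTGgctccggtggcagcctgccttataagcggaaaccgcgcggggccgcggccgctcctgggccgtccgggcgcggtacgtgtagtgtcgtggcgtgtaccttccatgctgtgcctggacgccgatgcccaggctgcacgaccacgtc
Plin2: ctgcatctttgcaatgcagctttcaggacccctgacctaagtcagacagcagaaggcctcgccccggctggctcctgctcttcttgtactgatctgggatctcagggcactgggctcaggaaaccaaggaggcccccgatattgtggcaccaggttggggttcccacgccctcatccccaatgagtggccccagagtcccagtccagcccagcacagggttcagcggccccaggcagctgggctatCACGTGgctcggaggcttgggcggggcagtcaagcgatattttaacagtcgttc
Both strands were searched. The E-box is in 7.15% of all 32851 promoter windows of this length and the direct repeat in 0.0487%. The motifs were chosen after the sequences were seen, the 2 patterns do not overlap in the Abca1 window, and a match describes letters and not a bound site.

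Levels are the unique molecule counts (UMIs) of a gene summed over the cells of a name, per 10000 UMIs counted over all measured genes, with an exact Poisson 95% interval in square brackets. Each name was compared with every other cell of its suffix, and the ratio was called above or below when its exact conditional 95% interval lay wholly beyond 2-fold. Cells of 1 suffix are not replicates, so no p-value is given, and the intervals hold counting error alone. Levels are not compared between genes. Of 154 ratios (7 genes, 22 names) in suffix 1, 11 were called above (7.14%) and 40 below (26.0%), where 7.23% and 9.18% of the ratios of all measured genes were so called. In suffix 2, 11 were above (7.14%) and 36 below (23.4%), against 4.19% and 8.18% of all genes. The calls above that both suffixes shared were 6 (Fabp4 and Cd36 in fibroblasts, Fabp5 in Macro_Maf and cDC1_Ccl22, and Abca1 in Macro_Maf and Macro_Vegfa), and 29 calls below were shared. The share of all genes called in both suffixes was not computed, so these shared counts have no background beside them. In bulk sums of this kind, fewer expressing cells and less RNA per cell give the same level, so shares of cells with a UMI are given beside levels where the results turn on them.

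Several facts of the cells touch these results. Suffix 1 and suffix 2 shared 12 barcode sequences, and the median cell held 1224.5 UMIs in suffix 1 and 1712 in suffix 2. S100a8 and S100a9 made up 58.5% of the UMIs of neutrophils in suffix 1 and 57.7% in suffix 2, which lowers every other gene's level there. Some names held markers of cell types other than their label. Osteoclast markers were highest in cDC1_Clec9a (886 and 1204 over 5 measured genes) and next highest in pDC (223 and 289). The endothelial markers, of which 4 of 12 were measured (Emcn, Tie1, Egfl7 and Selp), were highest in fibroblasts (4.36 and 7.26). Fibroblast markers, 4 of which were measured, were also highest there, at 739 and 817, against 0.464 and 1.22 in the next name. None of the 7 adipocyte markers was measured.

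**Figure D1:**
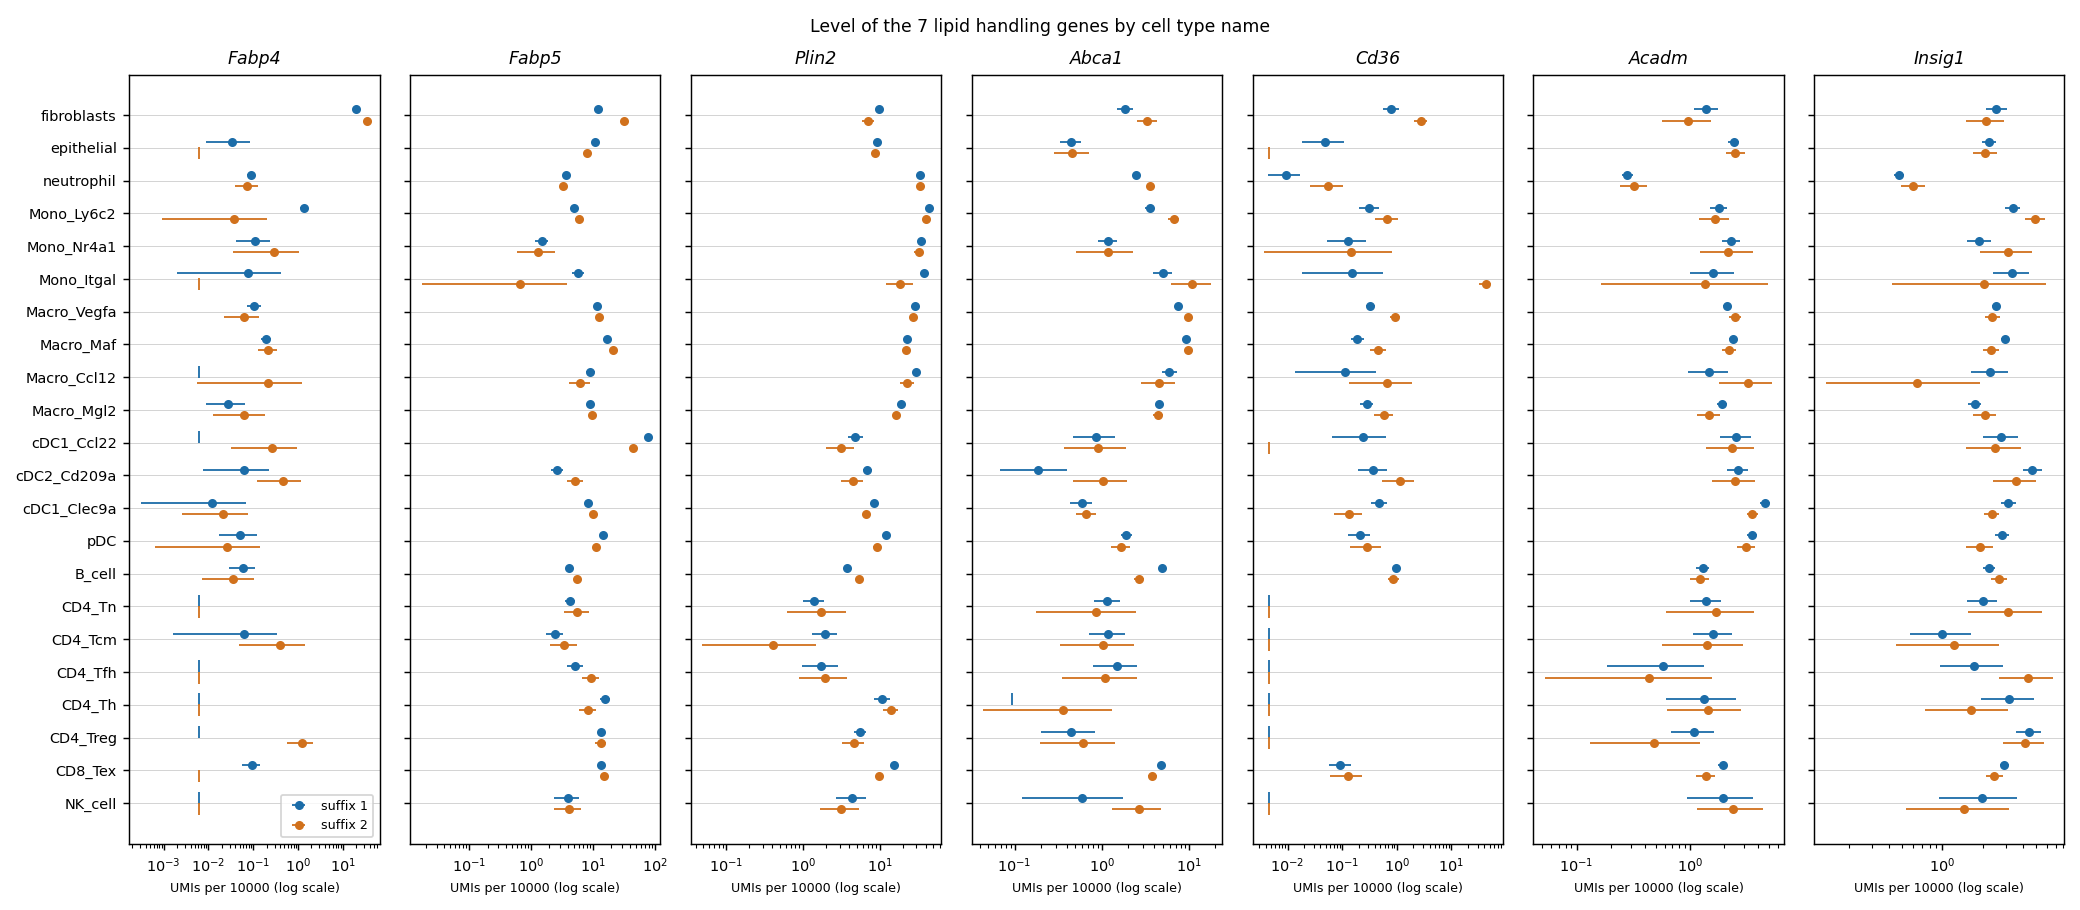
Level of each of the 7 genes (UMIs per 10000, log scale, a different range for each gene) in the cells of 22 names, for suffix 1 (blue) and suffix 2 (orange), with exact Poisson 95% intervals. Upright ticks without a point, set at an arbitrary low place on the axis, are names with 0 UMIs. Fabp4 stands highest in fibroblasts, Fabp5 in cDC1_Ccl22 and Plin2 in monocytes and neutrophils.

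The carriers of fatty acids came first. Fabp4, the fatty acid binding protein of adipocytes and capillary endothelium, stood at 19.6 [18.4, 20.9] in fibroblasts of suffix 1, against 0.121 in all other cells, a log2 ratio of 7.34 [7.16, 7.52]. In suffix 2 it stood at 34.7 [32.0, 37.4] in fibroblasts, against 0.0798 in all other cells, a log2 ratio of 8.76 [8.40, 9.15]. Fibroblasts, which a CD45 sort is meant to leave out, thus held 969 of the 1322 Fabp4 UMIs of suffix 1 and 644 of the 711 of suffix 2. It was detected in 44 of 140 fibroblasts of suffix 1 and 19 of 47 of suffix 2, and the highest cell held 154 UMIs in suffix 1 and 234 in suffix 2. Of all genes, 16.7% in suffix 1 and 10.8% in suffix 2 were called above in fibroblasts. In B cells, which should lack Fabp4, 0.448% of cells had a UMI in suffix 1 and 0.714% in suffix 2. After each cell was thinned to 500 UMIs, the share was 22.1% in fibroblasts, against 0.0899% in B cells, in suffix 1, and 21.6% in fibroblasts, against 0 of 360 B cells, in suffix 2, where 0 allows up to 0.833%. Median depth was 2301 UMIs in fibroblasts, against 558 in B cells, in suffix 1, and 3782, against 1352, in suffix 2.

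Within the cells named fibroblasts, Fabp4 followed endothelial markers. The 30 cells (21.4%) of suffix 1 with a UMI of any of the 4 endothelial genes had 54.2 [50.2, 58.5] per 10000, against 7.90 [7.02, 8.87] in the 110 cells without, and held 70.0% of the fibroblasts' Fabp4 UMIs. In suffix 2 the 11 cells with such a UMI had 151 [139, 164], against 5.00 [3.93, 6.28] in the 36 without, and held 88.5% of the UMIs. The ratios were 6.86 [5.97, 7.90] and 30.1 [23.6, 38.9]. Cd36 moved the same way, at 1.60 against 0.516 in suffix 1, a ratio of 3.10 [1.57, 6.14], and at 13.2 against 0.0676 in suffix 2, where the 36 cells without an endothelial UMI held 1 Cd36 UMI, a ratio of 196 [33.5, 7876]. For Fabp5 the levels were 23.7 against 8.50, and 97.2 against 15.0, ratios of 2.78 [2.37, 3.27] and 6.48 [5.47, 7.69]. Plin2, Acadm and Insig1 did not differ beyond counting error between the cells with and without, in either suffix, and Abca1 differed in suffix 2 only, at 5.55 against 2.77. The matrix collagen gene Col3a1 was present on both sides, at 539 in cells with endothelial UMIs, against 587 in those without, in suffix 1, and at 284 against 731 in suffix 2. It was detected in 16 of 30 cells with and 87 of 110 without in suffix 1, and in 5 of 11 and 34 of 36 in suffix 2. Among other fibroblast markers of suffix 1, Col6a3 (15.8 against 33.3) and Serping1 (49.3 against 60.3) were lower with endothelial UMIs, and Col5a2 (81.2 against 77.2) was not. In suffix 2 Col5a2 (47.0 against 95.9), Col6a3 (21.9 against 31.1) and Serping1 (34.4 against 68.4) were lower. Cells with endothelial UMIs were deeper than the others in suffix 1 (median 3261 against 2058.5 UMIs) and shallower in suffix 2 (1946 against 4027). Without the cells holding endothelial UMIs, the log2 ratio of Fabp4 in fibroblasts to other cells was 6.02 in suffix 1 and 5.97 in suffix 2. This split was chosen after the values were seen, and single cells weighed heavily in it. In suffix 2, 1 cell held 234 of the 570 Fabp4 UMIs and 16 of the 50 Cd36 UMIs. Another held 164 and 25. A cell with 1 endothelial UMI and 0 Fabp4 UMIs held 220 of the 368 Fabp5 UMIs there. In suffix 1, cells with 154 and 134 of the 678 Fabp4 UMIs had 1 endothelial UMI each. Fabp4 was detected in 20 of 30 cells with endothelial UMIs and 24 of 110 without in suffix 1. In suffix 2 it was detected in 8 of 11 and 11 of 36.

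**Figure D2:**
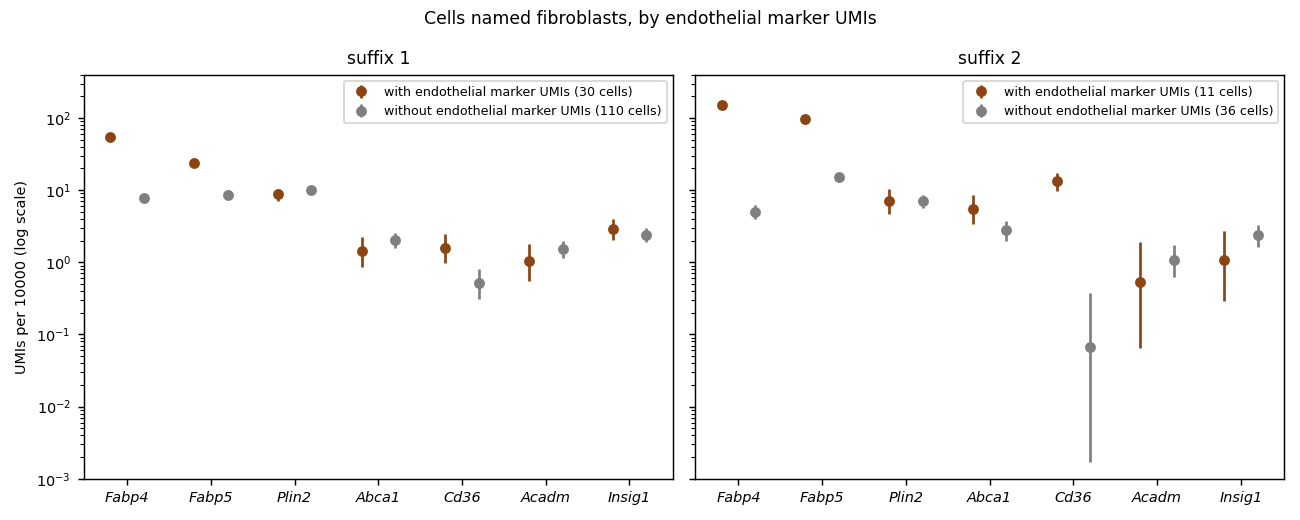
Levels of the 7 genes (UMIs per 10000, log scale, exact Poisson 95% intervals) in cells named fibroblasts with at least 1 UMI of Emcn, Tie1, Egfl7 or Selp (brown) and in those without (grey), by suffix. Fabp4 stands at 54.2 with and 7.90 without in suffix 1, and at 151 with and 5.00 without in suffix 2, while the intervals of Plin2 overlap.

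Outside fibroblasts Fabp4 was scarce, and where a name stood out 1 cell carried the level. Mono_Ly6c2 monocytes of suffix 1 stood at 1.39 [1.14, 1.68], against 0.422 in other cells, and were called above. However, 96 of their 106 UMIs came from 1 cell, which also held 29 UMIs of Fabp5 and no UMI of the 4 endothelial genes. Without that cell the level was 0.131 and the log2 ratio was -1.68, and in suffix 2 Mono_Ly6c2 had 1 UMI in 149 cells. In Macro_Maf of suffix 1, 44 of 57 UMIs likewise lay in 1 cell, and in CD4_Treg of suffix 2, 9 of 10. Fabp4 had 0 UMIs in both suffixes in 4 names, CD4_Tn, CD4_Tfh, CD4_Th and NK_cell. In suffix 1 the zeros allow levels up to 0.0995 in CD4_Tn, 0.345 in CD4_Tfh, 0.450 in CD4_Th and 0.592 in NK_cell. In suffix 2 the zero in CD4_Tn allows up to 0.849. Neutrophils stood below these limits, at 0.0898 and 0.0740, so the zeros do not show a lower level than theirs.

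Fabp5, the paralog known from skin, macrophages and lymphocytes, had UMIs in every name in both suffixes, and its highest level was in cDC1_Ccl22. Cells of that name, whose label holds Ccl22, a chemokine of activated dendritic cells, stood at 77.0 [72.8, 81.3] in suffix 1, against 8.18 in all other cells, a log2 ratio of 3.23 [3.15, 3.32]. In suffix 2 they stood at 45.1 [40.5, 50.1], against 10.3, a log2 ratio of 2.14 [1.98, 2.29]. Most of these cells had a Fabp5 UMI, 79.5% in suffix 1 and 76.9% in suffix 2, and after thinning 68.8% and 56.8%. The UMIs were unevenly spread, however: the median cell held 4 and 3 UMIs, and the 5 highest cells held 31.2% of the UMIs of 88 cells in suffix 1 and 63.8% of those of 39 cells in suffix 2. The highest cell of suffix 2 held 108 of 345 UMIs, and the level without it was 32.0 [28.1, 36.4]. Of the other dendritic names, pDC stood at 14.6 and 11.4 and cDC1_Clec9a at 8.44 and 9.94. The lowest of them, cDC2_Cd209a, stood at 2.66 in suffix 1 and 5.21 in suffix 2, and cDC1_Ccl22 lay above it by log2 ratios of 4.86 [4.54, 5.19] and 3.11 [2.67, 3.59].

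Macrophages of the name Macro_Maf came next in suffix 1 and led the names with 50 or more cells in suffix 2. They stood at 16.8 [16.3, 17.2], against 7.66 in all other cells, in suffix 1, and at 21.5 [20.5, 22.5], against 9.42, in suffix 2, and were called above in both. Among T cells, CD4_Treg regulatory cells stood at 13.7, against 4.31 in naive CD4_Tn cells, in suffix 1, and at 13.4, against 5.66, in suffix 2, log2 ratios of 1.66 [1.36, 1.97] and 1.24 [0.55, 2.01]. CD8_Tex cells stood at 13.6 and 15.0. The level of 15.8 in CD4_Th of suffix 1 contained 47 of 105 UMIs from 1 cell and was 9.41 without it. Mono_Nr4a1 monocytes were lowest in suffix 1, at 1.49 [1.18, 1.86], and stood at 1.32 in suffix 2, and Mono_Ly6c2 lay above them by log2 ratios of 1.71 [1.36, 2.08] and 2.20 [1.24, 3.35]. Fabp5 in fibroblasts differed between suffixes, at 12.3 in suffix 1 and 31.7 in suffix 2, the second with 220 of 590 UMIs in 1 cell.

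Cd36, the receptor that takes up fatty acids and oxidised lipoproteins, was the sparsest member, with 568 UMIs in suffix 1 and 444 in suffix 2. B cells, among which CD36 is known from the marginal zone cells of mouse spleen, stood at 0.979 [0.834, 1.14] in suffix 1, against 0.145 in all other cells, and were called above with a log2 ratio of 2.75 [2.48, 3.02]. In suffix 2 they stood at 0.864 [0.677, 1.09], against 0.480, and the log2 ratio, 0.85 [0.47, 1.21], was not called. A UMI was found in 85 of 1785 B cells (4.76%) and 33 of 420 (7.86%). Pooled CD4 names, taken as lacking the gene, had 0 of 1112 cells in suffix 1, which allows up to 0.270%, and 0 of 269 in suffix 2, which allows up to 1.12%, and median depth was 558 and 1352 UMIs in B cells, against 655.5 and 913 in the CD4 names. Thinned to 500 UMIs, the shares were 3.15% and 3.61% in B cells, against 0 of 888 and 0 of 250 in the CD4 names. So the B cell share stood above that of the CD4 cells at equal depth in both suffixes, whereas the ratio to all other cells was called in suffix 1 alone.

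Fibroblasts stood at 0.791 [0.562, 1.08] for Cd36 in suffix 1, against 0.182 in all other cells, and at 2.74 [2.04, 3.61] in suffix 2, against 0.468, called above in both. Those levels rested on 11 and 5 cells. With the cells holding endothelial UMIs left out of the fibroblasts, the log2 ratio was 1.5 in suffix 1, against 2.12 with them, and -2.79 in suffix 2, against 2.55 with them. The highest Cd36 level of all, 42.1 in Mono_Itgal of suffix 2, came from 1 of 5 cells, which held all 62 UMIs, and Mono_Itgal of suffix 1 stood at 0.153. Among macrophages, Macro_Vegfa stood above Macro_Maf in both suffixes, at 0.327 against 0.190 and at 0.925 against 0.460, log2 ratios of 0.79 [0.31, 1.28] and 1.01 [0.44, 1.59]. In suffix 2, however, 1 Macro_Vegfa cell held 33 of the 90 UMIs, and without it the level was 0.592 [0.449, 0.767], which overlaps the 0.460 [0.326, 0.632] of Macro_Maf. Neutrophils had 0.00926 in suffix 1 and 0.0555 in suffix 2.

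**Figure D3:**
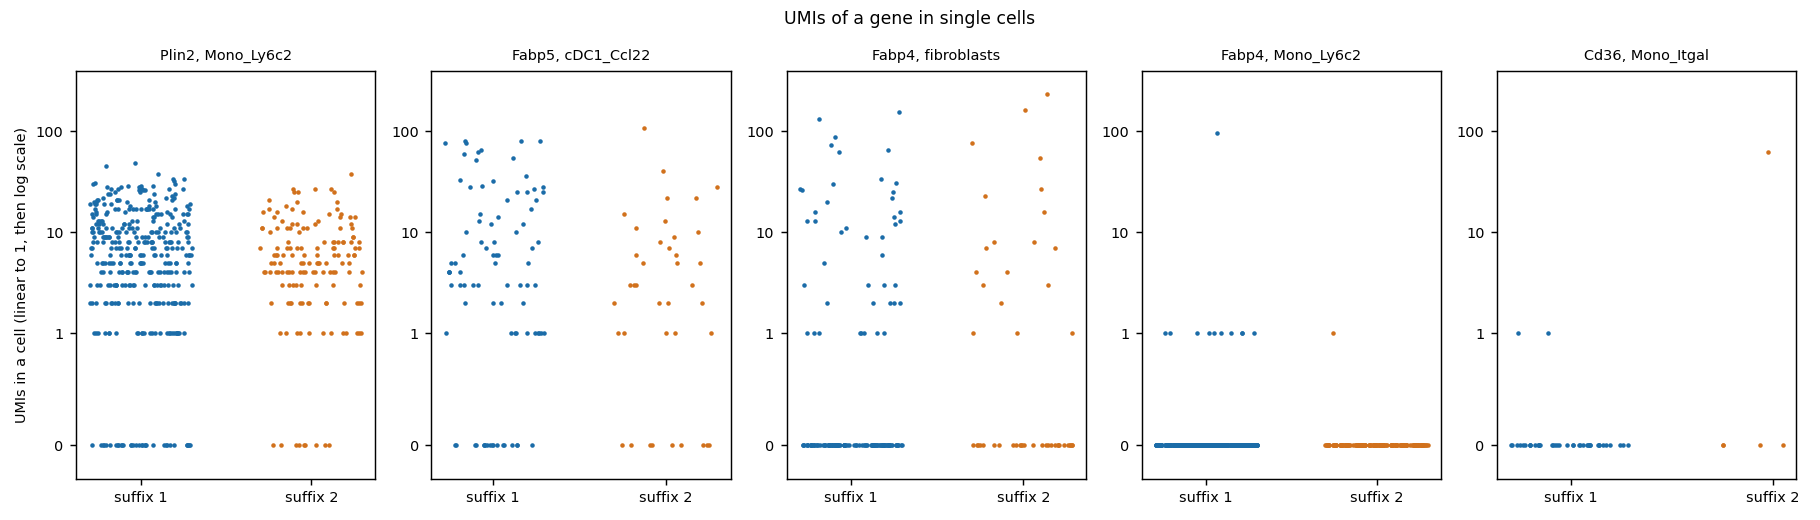
UMIs of a gene in each cell (linear to 1, then log scale; points spread sideways at random) for 5 pairs of gene and name, in suffix 1 (blue) and suffix 2 (orange). Most cells have Plin2 and Fabp5 UMIs, whereas single cells with 96 Fabp4 UMIs in Mono_Ly6c2 and with 62 Cd36 UMIs in Mono_Itgal stand apart.

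Storage was represented by Plin2, the coat protein of lipid droplets, whose RNA was abundant in the monocyte, neutrophil and macrophage names. The dendritic names cDC1_Ccl22 (4.82 and 3.14), cDC1_Clec9a (8.44 and 6.58) and cDC2_Cd209a (6.85 and 4.42) were called below in both suffixes. Mono_Ly6c2, the name of classical monocytes, stood at 43.4 [41.9, 44.9] in suffix 1, against 23.4 in all other cells, and at 40.3 [37.9, 42.8] in suffix 2, against 17.2, log2 ratios of 0.89 [0.84, 0.94] and 1.23 [1.14, 1.32], of which the second was called above. Neutrophils stood at 33.4 [33.0, 33.7], against 18.5, in suffix 1 and at 33.3 [32.4, 34.2], against 14.3, in suffix 2, again called in suffix 2. Mono_Nr4a1 stood at 34.9 and 32.0, Macro_Vegfa at 28.6 and 26.7, Macro_Maf at 22.8 and 22.2, and Macro_Mgl2 at 18.7 and 16.5. The order of these 6 names was nearly the same in both suffixes, with neutrophils and Mono_Nr4a1 exchanging places. At the other end, naive and central memory CD4 cells had little: CD4_Tn stood at 1.39 and 1.70 and CD4_Tcm at 1.93 and 0.407. Of the 21 steps between neighbours in the order of all 22 names, 8 were larger than counting error in suffix 1 and 5 in suffix 2.

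Detection was high in the names that led and low in CD4_Tn, but its order was not that of the levels. A Plin2 UMI was present in 95.5% of neutrophils of suffix 1 and 93.6% of suffix 2, and in 91.0% and 94.0% of Mono_Ly6c2, and in suffix 1 it was present in 99.1% of Mono_Nr4a1 and 96.1% of Macro_Mgl2. After thinning to 500 UMIs the shares were 78.0% and 77.5% in neutrophils and 80.1% and 74.3% in Mono_Ly6c2, against 6.20% and 8.11% in CD4_Tn. Which name led depended on the scale. With S100a8 and S100a9 left out of the denominator, neutrophils led at 80.4 in suffix 1 and 78.8 in suffix 2, against 45.4 and 40.8 in Mono_Ly6c2. As UMIs per cell, Macro_Mgl2 led at 13.3 and 11.1, against 6.31 and 5.84 in neutrophils. Its median cell held 6227 counted UMIs in suffix 1, against 1120 in neutrophils. The low level of lymphocytes named CD4_Tn or CD4_Tcm held on all 3 scales.

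**Figure D4:**
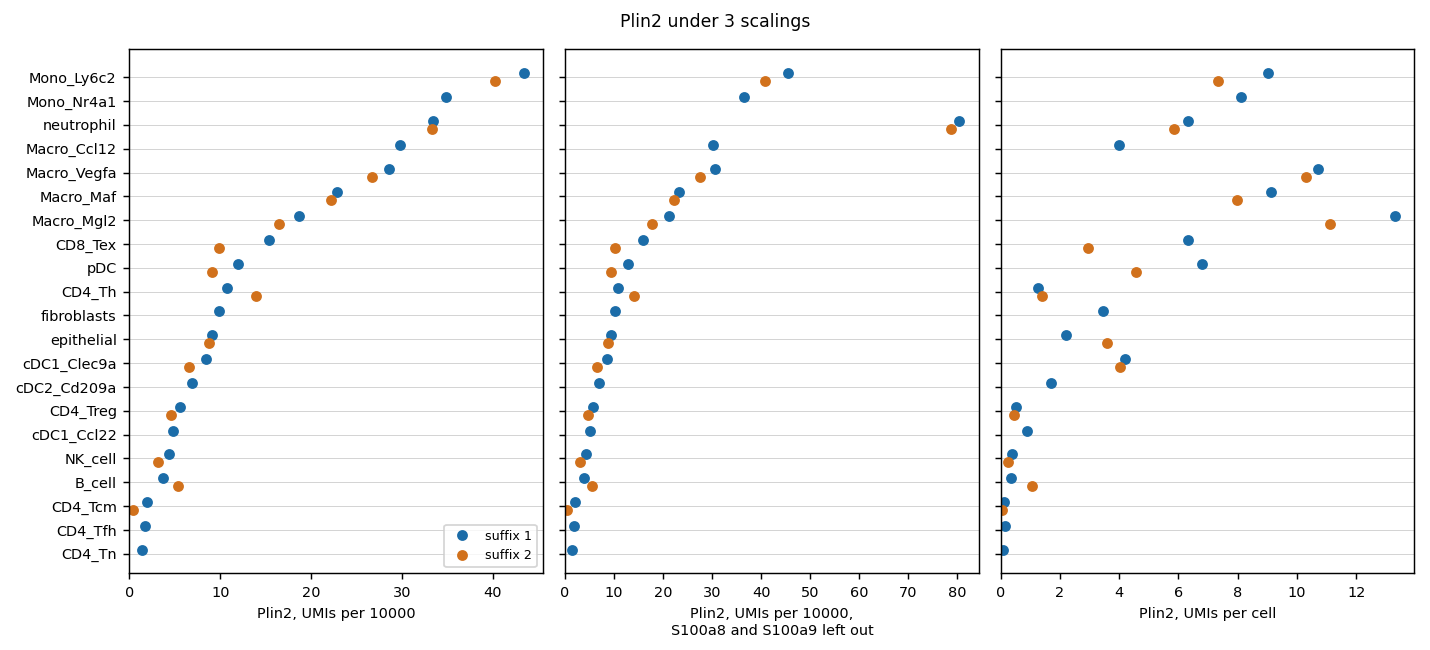
Plin2 by cell type name (names with 50 or more cells) in suffix 1 (blue) and suffix 2 (orange), as UMIs per 10000 (left), as UMIs per 10000 with S100a8 and S100a9 left out (middle) and as UMIs per cell (right), all on linear axes. Mono_Ly6c2 leads at 43.4 and 40.3 on the left, neutrophils at 80.4 and 78.8 in the middle, and Macro_Mgl2 at 13.3 and 11.1 on the right.

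Of the other genes of droplet storage and lipolysis, 8 of 31 listed genes were measured, Plin2 included, and 6 had enough UMIs. For listed genes other than the members, the highest name is given, here and below, among names with 50 or more cells. The 3 with the most UMIs were Plin2, G0s2, an inhibitor of the triglyceride lipase, and Soat1, which esterifies cholesterol. G0s2 stood at 88.3 in neutrophils, against 8.23 in all other cells, in suffix 1, and at 132, against 6.15, in suffix 2. It was the only listed gene called above in neutrophils of suffix 1, and Plin2 joined it in suffix 2, where 2.59% and 2.82% of all genes were so called. Soat1 was highest in Mono_Ly6c2, at 10.4 and 11.6, as Plin2 was. On the uptake list, with 9 of 31 genes measured, the transporter Slc27a4 was highest in neutrophils, at 1.38, against 0.427 in other cells, in suffix 1, and 1.48, against 0.366, in suffix 2. Dbi, which carries acyl-CoA, was highest among names with 50 or more cells in Mono_Nr4a1 of suffix 1 (34.0) and Mono_Ly6c2 of suffix 2 (20.1).

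Sterol export was represented by Abca1, which passes cholesterol and phospholipid to apolipoprotein A-I. It was called above in Macro_Maf and Macro_Vegfa in both suffixes. Macro_Maf stood at 9.35 in suffix 1, against 3.36 in all other cells, and at 9.86 in suffix 2, against 3.68, log2 ratios of 1.48 [1.41, 1.54] and 1.42 [1.31, 1.53]. Macro_Vegfa stood at 7.54 [7.24, 7.84], against 3.51, and at 9.81 [9.20, 10.5], against 3.57. The 2 macrophage names differed from each other in suffix 1 by a log2 ratio of -0.31 [-0.39, -0.23], Macro_Vegfa over Macro_Maf, and not beyond counting error in suffix 2, at -0.01 [-0.14, 0.13]. Mono_Ly6c2 stood above Mono_Nr4a1, at 3.57 against 1.17 in suffix 1 and 6.67 against 1.17 in suffix 2, log2 ratios of 1.61 [1.21, 2.02] and 2.51. The names called below in both suffixes were 6, the dendritic cDC1_Ccl22, cDC2_Cd209a and cDC1_Clec9a, epithelial cells, CD4_Th and CD4_Treg.

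B cells, set beside the macrophages as cells thought to lack Abca1, did not serve as such. They stood at 4.87 in suffix 1 and 2.67 in suffix 2, and 30.6% and 23.6% of them had a UMI. In cells thinned to 500 UMIs, the share with Abca1 in suffix 1 was 33.3% [29.9, 36.9] in Macro_Maf, against 22.8% [20.4, 25.4] in B cells, and 4.85% [2.90, 7.56] in CD4_Tn. In suffix 2 it was 36.2% [30.0, 42.8] in Macro_Maf, against 13.6% [10.2, 17.6] in B cells, and 5.41% [0.661, 18.2] in CD4_Tn. The B cell share thus lay above that of CD4_Tn beyond counting error at equal depth in suffix 1, and the intervals overlapped in suffix 2. Median depth was 3652 and 3362 UMIs in Macro_Maf.

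Abca1 in cells named CD8_Tex moved with macrophage RNA. The level under this T cell name was 4.73 in suffix 1 and 3.79 in suffix 2, but it differed with the complement genes C1qa, C1qb and C1qc, markers of macrophages. The 2 ends were compared. Of the 527 and 267 cells of the name, those with some C1q UMIs but fewer than 5 are on neither side. In suffix 1 the 253 cells holding 5 or more C1q UMIs had 6.29 [5.90, 6.69], against 0.212 [0.0576, 0.542] in the 106 cells with 0, a ratio of 29.7 [11.6, 109]. In suffix 2 the 52 cells holding 5 or more had 7.92 [7.02, 8.91], against 0.402 [0.162, 0.829] in the 91 with 0, a ratio of 19.7 [9.43, 49.4]. Plin2 showed the same division, at 18.8 against 3.70 and at 17.7 against 2.99, ratios of 5.07 [4.00, 6.52] and 5.94 [4.47, 8.03]. Fabp5 was nearly equal on both sides in suffix 1, at 12.6 against 11.8, a ratio of 1.07 [0.929, 1.23], and 1.38 [1.19, 1.61] in suffix 2. Acadm differed in suffix 1, a ratio of 1.79 [1.18, 2.87], and not beyond counting error in suffix 2, at 1.08 [0.661, 1.81]. Insig1 did not differ beyond counting error in either suffix. Of 5 T cell genes, 4 (Icos, Ctla4, Cd28 and Cd247) were lower in the cells with C1q UMIs in both suffixes. Ctla4 stood at 5.84 in cells with 5 or more C1q UMIs, against 25.7 in those with 0, in suffix 1, and at 9.53, against 18.4, in suffix 2. Lef1 was higher in suffix 1, at 2.05 [1.83, 2.29], against 0.688 [0.366, 1.18], and its intervals overlapped in suffix 2. Cells with 5 or more C1q UMIs were also deeper, with medians of 5447 UMIs, against 1169.5, in suffix 1 and 5914, against 1509, in suffix 2. The split was chosen after the data were seen, and whether such barcodes held more than 1 cell was not tested.

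**Figure D5:**
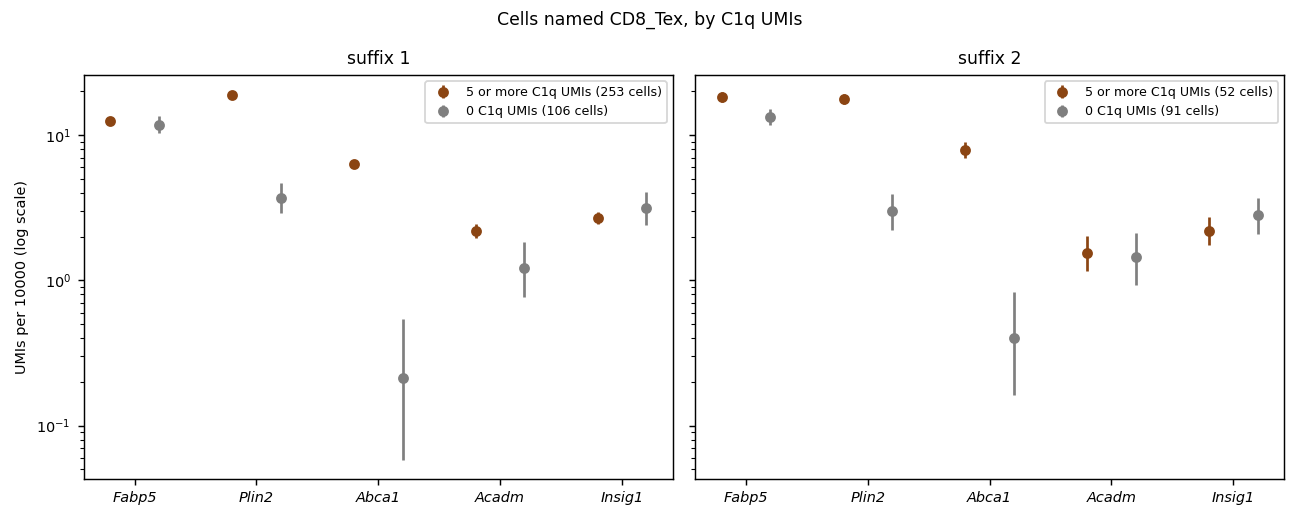
Levels of 5 members (UMIs per 10000, log scale, exact Poisson 95% intervals) in cells named CD8_Tex with 5 or more C1q UMIs (brown) and with 0 (grey), by suffix. Abca1 stands at 6.29 and 0.212 in suffix 1 and at 7.92 and 0.402 in suffix 2, while Insig1 intervals overlap.

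Only 5 of 24 listed genes of sterol efflux and LXR control were measured. In Macro_Maf 3 of the 5 were called above in both suffixes, Abca1, Nr1h3, which encodes LXR alpha, and Pltp, a phospholipid transfer protein, where 5.55% of all genes were so called in suffix 1 and 3.01% in suffix 2. The median log2 ratio of the 5 was 1.16 and 1.17, against 0.34 and 0.07 over all genes. The suffix 1 median was not particular to Macro_Maf. In cDC1_Clec9a, where Abca1 was called below, it was 1.18 in suffix 1 and 0.01 in suffix 2. Nr1h3, named after its values were seen, was highest in Macro_Maf, at 0.573 in suffix 1 and 0.776 in suffix 2. Pltp was highest in pDC, at 8.86 and 7.13, where Abca1 stood at only 1.90 and 1.65. The third gene with the most UMIs, the transporter Abca2, was highest in CD4_Th, at 2.10 and 2.53, a name with 0 Abca1 UMIs in 56 cells of suffix 1 and 2 UMIs in 56 cells of suffix 2.

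Oxidation was represented by Acadm, the medium-chain acyl-CoA dehydrogenase of mitochondria. It was highest in cDC1_Clec9a, the name with the highest level of osteoclast markers, at 4.60 [4.15, 5.09] in suffix 1, against 1.42 in all other cells. In suffix 2 it stood there at 3.58 [3.21, 3.98], against 1.59. The log2 ratios were 1.70 [1.54, 1.85] and 1.17 [0.99, 1.34], called above in suffix 1. Among names with 50 or more cells pDC, also next in osteoclast markers, followed, at 3.57 (called) and 3.17. A UMI was found in 65.5% of cDC1_Clec9a cells in suffix 1 and 74.5% in suffix 2, at median depths of 4857 and 6220 UMIs, and in 24.0% and 16.2% after thinning. Neutrophils were lowest, at 0.281 [0.250, 0.314], against 2.21, and at 0.321 [0.240, 0.421], against 2.17. Without S100a8 and S100a9 in the denominator neutrophils stood at 0.676 and 0.758. The lowest names with 50 or more cells were then CD4_Tfh in suffix 1 (0.578) and CD4_Treg in suffix 2 (0.484). Neighbours in the order were seldom separable, with 2 of 21 steps beyond counting error in suffix 1 and 0 in suffix 2, but names farther apart were: CD4_Treg stood at 1.08 [0.679, 1.64] in suffix 1 and 0.483 [0.132, 1.24] in suffix 2, below the intervals of epithelial cells, at 2.46 [2.19, 2.75] and 2.53 [2.08, 3.05].

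The oxidation list, with 13 of 40 genes measured, was followed in the same names. In cDC1_Clec9a 4 of 13 were called above in suffix 1 (Acadm, Cpt2, Hadhb and Decr1) and 2 in suffix 2 (Cpt2 and Hadhb), none below, where 10.4% and 8.23% of all genes were called above. Their median log2 ratio was 0.78 and 0.51, against 0.12 and -0.29 over all genes. Cpt2, the inner membrane carnitine palmitoyltransferase, stood at 0.635 in cDC1_Clec9a, against 0.137 in other cells, and at 0.541, against 0.161; it was named after its values were seen. In neutrophils 10 and 11 of 13 were called below, where 73.5% and 66.7% of all genes were below, so that share lies close to the background. Among the genes of the list with the most UMIs, Acadl peaked in epithelial cells (6.61 and 5.92) and Scp2 in Mono_Nr4a1 of suffix 1 (12.1) and Macro_Maf of suffix 2 (10.7).

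Insig1, which holds the SREBP escort protein in the endoplasmic reticulum and is itself an SREBP target, had few separable neighbours in its order, with 2 of the 21 steps beyond counting error in suffix 1 and 0 in suffix 2, although names farther apart differed. It was highest in cDC2_Cd209a in suffix 1, at 4.69 [3.98, 5.50], against 1.81 in other cells, called above, where CD4_Tcm had 0.997 [0.570, 1.62], and stood at 3.51 [2.39, 4.99] there in suffix 2, against 2.11, not called. Mono_Ly6c2 was highest in suffix 2, at 4.90 [4.10, 5.81], against 2.04, called above, and stood at 3.35 in suffix 1. CD4_Treg stood at 4.39 and 4.10. In suffix 1 CD4_Treg lay above CD4_Tn by a log2 ratio of 1.14 [0.65, 1.64], and in suffix 2 by 0.40 [-0.62, 1.53], which counting error covers. Neutrophils stood at 0.477 and 0.605 and were called below in both suffixes. Without S100a8 and S100a9 in the denominator they stood at 1.15 and 1.43, and CD4_Tcm was then lowest among names with 50 or more cells. Of the 50 listed genes of sterol and fatty acid synthesis, 15 were measured, and in cDC1_Clec9a the same 4 were called above in both suffixes (Fdps, Elovl1, Hacd1 and Hacd4), Insig1 not among them, where 10.4% and 8.23% of all genes were above. Called below were 1 in suffix 1 (Lbr) and 3 in suffix 2 (Lbr, Elovl6 and Acss1), where 10.7% and 19.0% of all genes were below.

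Over names with 50 or more cells (21 in suffix 1, 14 in suffix 2), 2382 genes were ranked by the correlation of log2(level + 0.1) with each member, as a description over names that share libraries. The closest to Plin2 were the endotoxin receptor Tlr4 (Pearson r 0.94 in suffix 1 and 0.77 in suffix 2), the myeloid factor Cebpb (0.91 and 0.90) and the phagosomal metal transporter Slc11a1 (0.91 and 0.55). Abca1 was closest to the inhibitory Fc receptor Fcgr2b (0.78 and 0.90), Ptgs1 (0.78 and 0.58) and the efferocytosis receptor Mertk (0.73 and 0.82). Insig1 was closest to Cyp51, a sterol synthesis enzyme (0.83 and 0.86), Hs6st1 (0.82 and 0.53) and Zdhhc5 (0.82 and 0.38). Acadm was closest to the mitochondrial genes Hax1 (0.91 and 0.63), Idh3b (0.89 and 0.75) and Mtch2 (0.87 and 0.61). For Fabp4 the closest were the stromal genes Plpp3 (0.92 and 0.56), Grem1 (0.88 and -0.05) and Rgs5 (0.87 and 0.60), and the suffix 1 values rest on fibroblasts. In suffix 2 fibroblasts had under 50 cells and were left out, so the second values do not repeat the first. The median Fabp4 level over the 14 names there was 0.0362, under the 0.1 added to each level. CD4_Treg, highest of the 14 at 1.21, had most of its UMIs in 1 cell. Fabp5 had weaker neighbours, Sh3bp4 (0.73 and 0.63), Gnl2 (0.73 and 0.44) and Tmem222 (0.71 and 0.17). Cd36 was closest to Pkig (0.87 and 0.72), Erp44 (0.79 and 0.52) and BC028528 (0.77 and 0.91).

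The members were also set against each other over these names. Among their 21 pairs, r in suffix 1 ran up to 0.60, for Acadm and Insig1, which was 0.23 in suffix 2. In suffix 2 it ran up to 0.74, for Abca1 and Cd36, which was 0.36 in suffix 1. Plin2 and Abca1 had 0.40 and 0.51, and the paralogs Fabp4 and Fabp5 had 0.01 and 0.12. Within single names, the share of cells with both Plin2 and Abca1 was set beside the product of their separate shares, as a description, in 15 pairs of name and suffix. The 95% interval held the product in 11 of them and lay above it in 4, which were CD8_Tex in both suffixes, neutrophils of suffix 1 and B cells of suffix 2. That interval is of the joint share alone, although the product comes from the same cells. An interval that held the product therefore does not show that the 2 genes were independent. In Macro_Maf of suffix 2, which held it, 64 of 83 cells with Abca1 had Plin2, against 143 of all 229 cells. In neutrophils of suffix 2, 157 of 182 did, against 605 of all 781. In Macro_Maf thinned to 500 UMIs, 22.7% of cells in suffix 1 had both, where the product of the shares was 21.5%, and in suffix 2 27.9% had both, where the product was 22.6%. In CD8_Tex both were found in 6.83% [4.77, 9.41] of cells, where the product was 4.34%, in suffix 1 and in 5.32% [2.94, 8.77], where the product was 1.65%, in suffix 2. Neutrophils of suffix 1 had both in 13.5% [12.6, 14.5], where the product was 12.4%, and B cells of suffix 2 in 4.72% [2.77, 7.45], where it was 2.19%.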

How the data were processed

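CD45+, propidium iodide-negative cells from 4 libraries (2 of sgMif and 2 of CON tumours) were sequenced on the 10x Genomics platform, per the labels. UMI counts per gene and cell were deposited by the authors, with cell type names for 45781 barcodes in a second table; the submitters' processing notes list Cell Ranger, Seurat and the mouse build GRCm38, also called mm10. Their versions and roles, cell filters and doublet handling were not given in the sources used here. Of the count table, the part used held 16383 cells and 4099 complete gene rows, so the UMI total of a cell is less than its depth; 1 incomplete row was left out. No barcode suffix could be tied to a library, so the groups were not compared.

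UMIs were summed over the cells of a name, with Python 3.11.15, numpy 2.4.6, scipy 1.17.1 and pandas 2.3.3. Levels have Poisson, ratios conditional binomial and shares Clopper-Pearson intervals, all exact and at 95%. Ratios needed 50 or more UMIs over both sides, and those of all genes were computed alike. The calculation was tested on simulated Poisson counts, the model behind the intervals. Those counts lack the spread between cells seen here, so the test covers the arithmetic alone. Thinning drew 500 UMIs from each cell and left out shallower ones. For each member the 3 genes most alike in suffix 1 were named, with 200 or more UMIs in each suffix, and of each lipid list the 3 genes with the most UMIs; other named genes were chosen after their values were seen. The members and lists were chosen with earlier results of these data known. One annotated cell type name is not reported here, but its cells count among the other cells; one gene that the naming rule took is likewise not reported. Alternatives tried were other scalings, a minimum of 500 UMIs per cell, cells with 5 or more C1q UMIs left out of names other than Macro, neutrophils left out of the other side, means over cells, a 1.5-fold threshold, thinning to 1000 UMIs and rank correlation. PCR and sampling errors beyond counting are not in the intervals.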

Additional observations from a re-analysis of the deposited data

How the results depend on the processing

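No paired analysis was possible because no suffix is tied to a library and no group was tested. The 11 ratios called above in suffix 1 became 35 in UMIs per cell, 7 without S100a8 and S100a9, 5 with neutrophils left out of the other side, 23 as means over cells (no interval) and 23 at 1.5-fold. The 40 below became 63 as means over cells. In suffix 2 the 11 above became 18 in UMIs per cell and 6 with the top cell of each name left out, and the 36 below became 65 as means over cells. Of 42 ratios followed under 6 planned settings, 0 changed sign. Of 2 settings added after seeing the data, leaving out the top cell turned Fabp4 in Mono_Ly6c2 of suffix 1 to -1.68, and leaving out fibroblasts with endothelial UMIs turned Cd36 in fibroblasts of suffix 2 to -2.79. Thinning to 1000 UMIs changed shares with depth: Fabp4 in fibroblasts stood at 26.8% and 26.5%, against 22.1% and 21.6% at 500. By rank correlation the 3 genes nearest Plin2 stayed the 3 nearest, but 0 of 3 did for Fabp5 and Abca1. Names with few cells, such as Mono_Itgal (5 cells in suffix 2), and sparse genes, such as Cd36, limit what could be seen.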
